A study of Homo sapiens with 4 samples.

Results

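The table of gene counts from ES-2 cells listed 790 genes whose symbols end in -AS and a number, the form given to RNAs transcribed from the strand opposite a named gene. Of these, 324 antisense RNAs reached 20 estimated counts in at least 1 of the 4 libraries and are described here, out of 19626 genes in all. The other 466 stayed below that limit. The members were thus chosen by their count level, and the levels are given as a description. Because a member could enter through either group, 228 members reached the limit in both groups, 47 in the shCtl libraries alone and 49 in the shM2-3 libraries alone.

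ES-2 is a human cell line labelled as ovarian clear cell carcinoma, and it carries the YAP1-MAML2 (YM) fusion. The cells were transduced with pLKO.1 lentivirus carrying either a nontargeting shRNA (shCtl, n = 2) or an shRNA against MAML2 (shM2-3, n = 2), and RNA was taken 96 h after the first infection according to the labels, while the study's methods give a shorter time. The shRNA lowers the YM fusion and native MAML2 together, and a single MAML2 shRNA was sequenced. In these libraries the effects of fusion, native MAML2 and this shRNA sequence therefore cannot be told apart. The replicates are labelled as biological replicates. Library totals ran from 20051083 to 23978660 estimated counts, of which the members took 0.147% to 0.156%. MAML2 had 1436 and 1402 estimated counts with shCtl and 634 and 553 with shM2-3, a log2 fold change of -1.40 (SE 0.0688, edgeR quasi-likelihood, Benjamini-Hochberg adjusted p = 5.18e-10). The clear cell marker NAPSA was near 0 in every library (RPKM 0.0309 to 0.369), as was PAX8 (0.0725 to 0.189), whereas KRT18 (176 to 299) and VIM (2.04e+03 to 2.97e+03) were abundant.

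Antisense RNAs are long noncoding transcripts read from the strand opposite another gene. Some begin beside the start of the sense gene and run away from it, some share exons with it, and others lie within its introns. They are known to act in several ways, including recruitment of chromatin regulators to the neighbouring promoter, pairing with the sense RNA and binding of microRNAs, and many have no known role. YAP1 and the YM fusion have no DNA-binding domain of their own and reach DNA through TEAD factors, which bind the letters CATTCC or, read on the other strand, GGAATG.

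The libraries were not strand-specific. A read from an exon shared by an antisense RNA and its sense gene therefore cannot be assigned to a strand. How the deposited estimated counts treat such reads was not tested. In GENCODE release 44 on hg38, 317 members were found, and 237 pairs had exons that overlap on opposite strands, 38 overlapped in introns alone and 35 lay head to head with starts within 5000 bases and no overlap. In 267 members at least 1 exon base lay in an exon of another gene, and the median over members was 10.7% of exon bases. Members with estimated counts that were whole in all 4 libraries (within 1e-06), and so without a sign of divided reads, made up 27.8% of members with exon overlap, 48.6% of head-to-head members and 65.8% of members with intron overlap. Head-to-head members share no exons with their sense gene, so counts that are not whole do not by themselves point to reads shared with it. In single libraries, 42.4% to 48.6% of all genes had whole estimated counts.

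The stretch between the 2 starts of a head-to-head pair can serve both genes, so 4 of these stretches are shown for pairs described below, chosen after their values were seen. Each was read from RefSeq (GRCh38.p14) 5′ to 3′ in the direction of the antisense RNA, and the part that lies outside both genes in GENCODE as well is printed, with capitals marking the TEAD letters GGAATG or CATTCC.
TM4SF1-AS1, chr3:149377693-149377777, plus strand: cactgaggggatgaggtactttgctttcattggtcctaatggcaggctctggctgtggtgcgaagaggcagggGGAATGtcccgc
SAP30L-AS1, chr5:154445851-154445996, minus strand: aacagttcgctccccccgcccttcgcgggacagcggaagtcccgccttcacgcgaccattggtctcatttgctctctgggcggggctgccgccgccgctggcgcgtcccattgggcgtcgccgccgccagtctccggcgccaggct
TMCC1-AS1, chr3:129893712-129893810, plus strand: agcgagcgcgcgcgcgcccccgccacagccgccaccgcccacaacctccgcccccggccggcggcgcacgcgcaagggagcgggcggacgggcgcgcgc
SLC2A1-AS1, chr1:42958894-42959048, plus strand: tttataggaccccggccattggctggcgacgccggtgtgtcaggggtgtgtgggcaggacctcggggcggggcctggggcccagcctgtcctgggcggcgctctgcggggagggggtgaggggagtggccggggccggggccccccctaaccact
The TM4SF1 stretch is 128 bases between the RefSeq starts and holds 2 TEAD matches, of which 1 lies in the 85 bases printed. Of all 27305 RefSeq promoters, 0.304% hold 2 or more matches in the 128 bases before the start and 6.06% hold at least 1. Among 40 pairs with 20 to 250 bases between their RefSeq starts, the TM4SF1 pair was the 1 pair with a TEAD match, and 0 held the AP-1 letters TGANTCA. Over the 300 bases around the start, 33 of the 245 members with a RefSeq promoter (13.5%) held a TEAD match, beside 14% of all promoters, with either strand counted. A match describes letters in the window and is no evidence of binding.

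Antisense RNAs were present at low levels, and over all 324 members the direction was near even, with log2 fold changes below 0 in 160, above 0 in 164 and a median of 0.01. Among the members that passed the limits for a call, more were lower than higher in shM2-3 cells. On the length-scaled RPKM scale, the mean over the 4 libraries ran from 0.133 to 26.8 with a median of 0.874, and 17 members reached a mean RPKM of 5. The sense genes had a median RPKM of 7.15, and the antisense RNA was below its sense gene in 252 pairs and above it in 60. The median antisense level was 13.4% of the sense RPKM.

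A gene was tested where its RPKM was above 1 in at least 1 library and was called where its adjusted p was 0.05 or less with a fold of at least 2. Of the 203 members tested, 44 were called lower (21.7%) and 24 higher (11.8%), beside 8.93% lower and 9.24% higher among all 12157 genes tested. The median log2 fold change was -0.08 over these members and 0.00 over all genes. Of the 68 calls, 26 fell on members that reached the count limit in a single group and so were chosen partly by their difference. Among the members that reached it in both groups, 28 of 165 were called lower (17%) and 14 higher (8.48%). When the filter was 20 counts in at least 1 library, all 324 members were tested. Of these, 59 were called lower (18.2%) and 45 higher (13.9%), beside 9.96% and 10.9% of all 14090 genes. The excess of lower over higher calls was thus smaller. Of the 228 members that reached the limit in both groups, 31 were called lower with this filter (13.6%) and 25 higher (11%). The sense genes went the other way, with 17 of 262 called lower (6.49%) and 37 higher (14.1%). Other long noncoding classes also had large shares of calls, with 29 of 118 LINC genes lower (24.6%) and 23 higher (19.5%). The median SE of a log2 fold change was 0.306 over members and 0.0844 over all genes. Whether fewer cells made an RNA or each cell held less of it cannot be told apart in these bulk libraries.

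Among the 10 called members with the lowest fold changes were HSD11B1-AS1, ITGB2-AS1, USP2-AS1, LRRC2-AS1, TBX2-AS1, CDK6-AS1, RGMB-AS1 and ATP6V1B1-AS1. In these 8 the shCtl and shM2-3 libraries did not overlap in RPKM, which is no separate support because they were chosen by called fold change. Of them, 5 reached the count limit in shCtl alone, so for those 5 the values are given without a p.

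**Figure D1:**
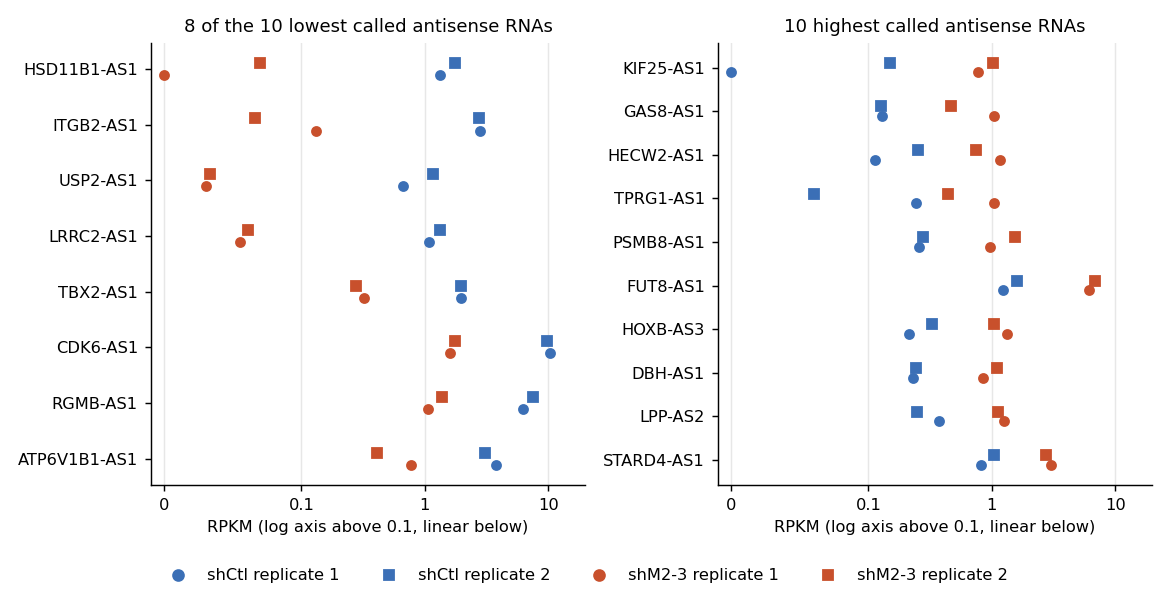
RPKM in each library (x axis, logarithmic above 0.1 and linear below) of 8 of the 10 lowest and the 10 highest called antisense RNAs, shCtl in blue and shM2-3 in red, with circles for replicate 1 and squares for replicate 2. CDK6-AS1 and RGMB-AS1 are the highest of the left panel in shCtl cells and FUT8-AS1 is the highest of the right panel in shM2-3 cells.

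RGMB-AS1 (chr5:98769618-98773469, minus strand) is read against RGMB, a co-receptor for bone morphogenetic proteins. It had 294 and 361 estimated counts with shCtl and 61 and 72 with shM2-3, or 6.82 ± 0.909 and 1.21 ± 0.225 RPKM (SD, n = 2 each). The log2 fold change was -2.44 (SE 0.186, edgeR quasi-likelihood, Benjamini-Hochberg adjusted p = 5.17e-08). RGMB itself fell less, from 26.4 ± 0.637 to 13.6 ± 0.0305 RPKM, a log2 fold change of -0.89 that missed the fold limit. The antisense RNA was thus 23.8% and 27.8% of the sense RPKM in shCtl and 7.72% and 10% in shM2-3, and 15.4% of its exon bases lie in RGMB exons.

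Among the members that reached the limit in shCtl alone, USP2-AS1 had 18 and 32 counts with shCtl and 1 and 1 with shM2-3, a ratio of 27.7 between the library-scaled counts of the groups, with a 95% exact interval of 7.27 to 235 that covers counting error alone. USP2 was below the RPKM filter and went from 44 and 52 to 7 and 3 counts. LRRC2-AS1 had 16 and 20 counts with shCtl and 1 and 1 with shM2-3, a ratio of 19.9 (interval 5.13 to 171). TBX2-AS1 had 45 and 46 counts with shCtl and 9 and 7 with shM2-3, beside TBX2, a T-box transcription factor called lower at -1.19 (SE 0.213) that lost its call without shM2-3 replicate 1 at -0.90.

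The called members with the highest fold changes were KIF25-AS1, GAS8-AS1, HECW2-AS1, TPRG1-AS1, PSMB8-AS1, FUT8-AS1, HOXB-AS3, DBH-AS1, LPP-AS2 and STARD4-AS1. Only FUT8-AS1, LPP-AS2 and STARD4-AS1 of these 10 reached the count limit in both groups. FUT8-AS1 (chr14:65411170-65412690, minus strand) lies at the start of FUT8, the fucosyltransferase that adds core fucose to N-glycans. It had 59 and 77 counts with shCtl and 359 and 362 with shM2-3, or 1.42 ± 0.248 and 6.54 ± 0.503 RPKM, a log2 fold change of 2.27 (SE 0.172, edgeR quasi-likelihood, Benjamini-Hochberg adjusted p = 4.98e-08). FUT8 rose from 17.4 ± 0.95 to 32.6 ± 0.723 RPKM, 0.97 on the log2 scale, which is under the fold limit but passed it without shCtl replicate 1 (1.03) and without shM2-3 replicate 1 (1.00). Antisense was 6.89% and 9.53% of sense in shCtl and 19.2% and 20.8% in shM2-3, and 54.2% of FUT8-AS1 exon bases lie in FUT8 exons. LPP-AS2 had 25 and 17 counts with shCtl and 104 and 84 with shM2-3, at a log2 fold change of 2.01 (SE 0.34, edgeR quasi-likelihood, Benjamini-Hochberg adjusted p = 0.000123), beside 0.22 for LPP, a focal adhesion protein gene that was not called.

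The other 7 reached the limit in shM2-3 alone, from low counts in shCtl. KIF25-AS1 had 0 and 5 counts with shCtl and 31 and 37 with shM2-3, GAS8-AS1 had 3 and 3 against 30 and 12, and HECW2-AS1 had 4 and 9 against 50 and 29. TPRG1-AS1 had 4 and 1 against 21 and 8 counts, and its call was lost with DESeq2, with total-count scaling and without shCtl replicate 2 or shM2-3 replicate 1. GAS8-AS1 also lost its call without shM2-3 replicate 1, at 1.90. HOXB-AS3 had 7 and 11 against 54 and 38 counts, and DBH-AS1 had 12 and 13 against 54 and 64. In each of these members the libraries of the groups did not overlap, which follows in part from their choice by fold change and count limit. The counts of PSMB8-AS1 were 10 and 10 with shCtl and 44 and 63 with shM2-3, while PSMB8, an immunoproteasome subunit, stayed at 17.2 ± 0.257 and 15 ± 0.951 RPKM. PSMB8 exons hold 24.8% of the PSMB8-AS1 exon bases. In all, 54% lie in exons of other genes, PSMB8, PSMB9 and TAP1 among them, so reads of those genes cannot be separated from its change.

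Pairs of antisense and sense genes changed in the same direction more often than in opposite directions, with wide scatter. Across the 297 pairs in which both genes reached 20 counts in a library, fold changes had the same sign in 173 (58.2%), Pearson's r was 0.41 and Spearman's coefficient 0.32. These values describe pairs that share their 4 libraries and, in overlapping genes, possibly some reads, so no p is given. Spearman's coefficient was 0.28 over 223 pairs with exon overlap, 0.45 over 32 with intron overlap and 0.36 over 35 head-to-head pairs, of which 68.6% had the same sign. Where exons overlapped, Spearman's coefficient was 0.33 below 10% shared antisense bases (107 pairs), 0.17 at 10% to 50% (96 pairs) and 0.37 above 50% (20 pairs). Over the 74 pairs without annotated exon overlap it was 0.40. These include pairs in which a gene was not found in the annotation, so their overlap is not known.

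**Figure D2:**
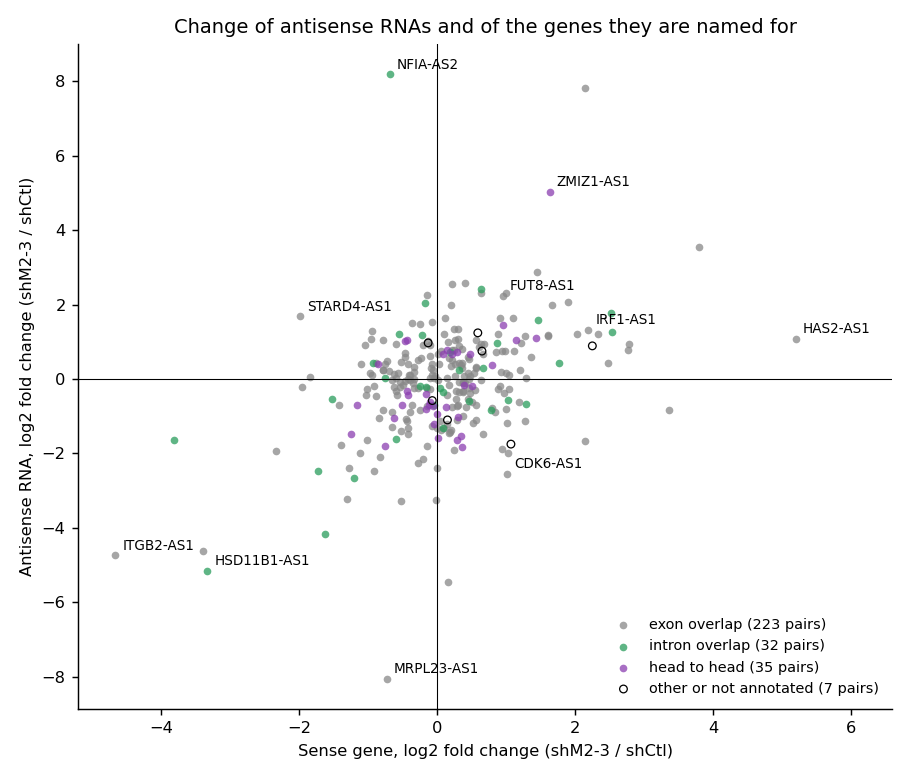
Log2 fold change (shM2-3 over shCtl) of each antisense RNA (y axis) against that of the gene it is named for (x axis), 1 point for each of the 297 pairs, coloured by annotated arrangement. Same-sign quadrants hold 173 pairs, and CDK6-AS1 and STARD4-AS1 stand in the opposite-sign quadrants.

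Of the 167 pairs with both genes tested on the RPKM filter, 7 had both called lower and 7 both called higher. A further 3 were called in opposite directions. Among those with both lower, ITGB2-AS1, HSD11B1-AS1, SOCS2-AS1, TBX2-AS1 and TM4SF1-AS1 reached the count limit in shCtl alone. Their direction was thus in part set by the choice of members. In 27 pairs the antisense RNA alone was called lower and in 10 it alone was called higher. In 4 pairs the sense gene alone was lower and in 12 it alone was higher. Neither gene was called in 97.

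The 3 pairs called in opposite directions were CDK6, STARD4 and MYOSLID, and MYOSLID-AS1 reached the count limit in shCtl alone, where it was high, so its direction was in part set by the choice of members. CDK6 encodes a kinase that drives entry into the DNA synthesis phase, and CDK6-AS1 (chr7:92836367-92917188, plus strand) overlaps the start of CDK6 and runs away from it. CDK6-AS1 had 209 and 198 estimated counts with shCtl and 39 and 39 with shM2-3, or 10.1 ± 0.504 and 1.68 ± 0.119 RPKM. CDK6 had 3277 and 3284 counts with shCtl and 8086 and 6738 with shM2-3, or 11.8 ± 0.122 and 23 ± 1.35 RPKM. The 2 RNAs were close to equal per length in shCtl, with antisense at 88.1% and 83.2% of sense, and were far apart in shM2-3 at 6.66% and 8%. The log2 fold change of CDK6-AS1 was -2.52 (SE 0.216, edgeR quasi-likelihood, Benjamini-Hochberg adjusted p = 1.69e-07) and that of CDK6 was 1.03 (SE 0.0464, edgeR adjusted p = 2.12e-10). CDK6 stood at the fold limit and fell to 0.98 without shM2-3 replicate 1 and 0.96 with limma on log2(RPKM + 0.1). The shared exon bases are 8.17% of CDK6-AS1.

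STARD4 carries cholesterol between membranes within the cell, and STARD4-AS1 (chr5:111510396-111739726, plus strand) begins within STARD4 and runs away over a long span. STARD4-AS1 had 106 and 137 counts with shCtl and 480 and 391 with shM2-3, or 0.931 ± 0.158 and 2.88 ± 0.212 RPKM. STARD4 had 1981 and 1967 counts with shCtl and 616 and 499 with shM2-3, or 15 ± 0.254 and 3.65 ± 0.283 RPKM. The order of the pair was kept, but antisense went from 5.4% and 7.04% of sense to 78.6% and 79.1%. The log2 fold changes were 1.70 for STARD4-AS1 (SE 0.145, edgeR quasi-likelihood, Benjamini-Hochberg adjusted p = 1.73e-07) and -1.97 for STARD4 (SE 0.0685, edgeR adjusted p = 1.42e-11). STARD4 exons hold 1.34% of the STARD4-AS1 exon bases, and 24.2% lie in exons of any other gene, STARD4 and NREP among them.

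The MYOSLID pair rested on few counts and is given as a description. MYOSLID-AS1 had 23 and 28 counts with shCtl and 13 and 4 with shM2-3, and MYOSLID, itself a long noncoding RNA first described in smooth muscle, had 30 and 42 against 75 and 93. The groups did not overlap for either RNA. The MYOSLID-AS1 call was lost without shCtl replicate 2 or shM2-3 replicate 2, and that of MYOSLID without shCtl replicate 1 or shM2-3 replicate 2.

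**Figure D3:**
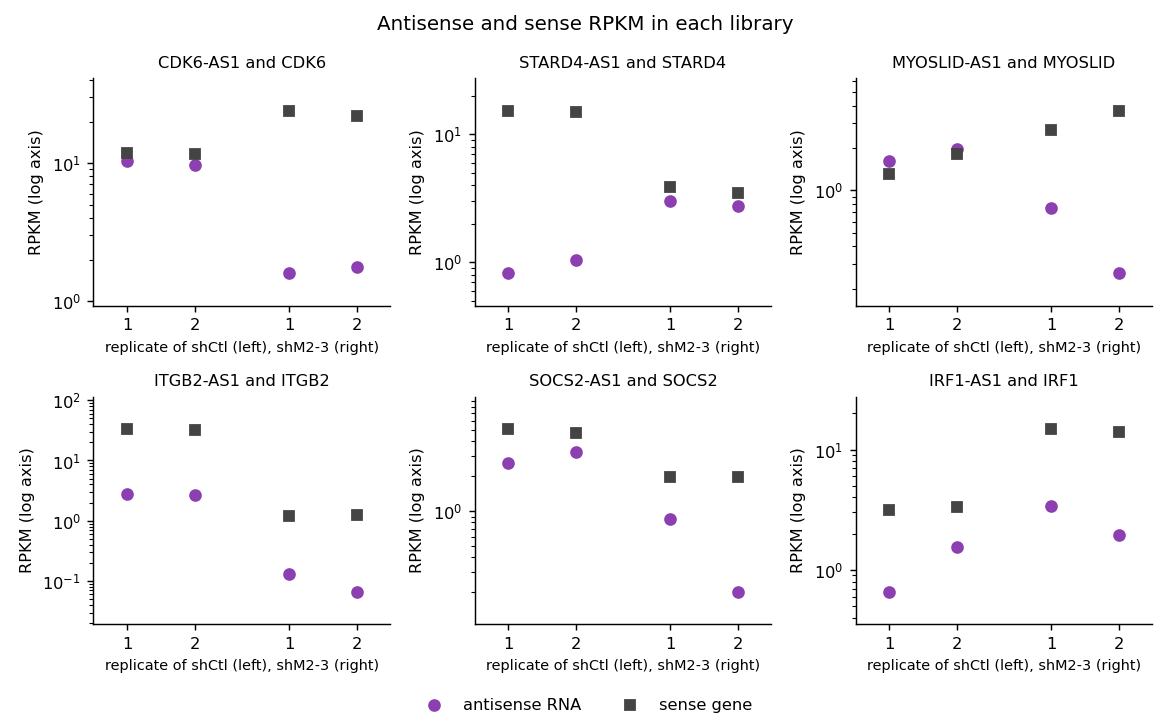
RPKM (y axis, logarithmic) of the antisense RNA (purple circles) and sense gene (grey squares) in each library of 6 pairs. In the CDK6 and MYOSLID pairs the antisense RNA was lower and the sense gene higher in shM2-3, in the STARD4 pair the reverse held, and in the ITGB2, SOCS2 and IRF1 pairs both moved in the same direction.

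Of the 7 pairs with both genes called lower, ITGB2 had the largest fall of the sense gene. ITGB2 is the beta chain of the leukocyte integrins, and ITGB2-AS1 (chr21:44921051-44929680, plus strand) lies within it on the other strand. ITGB2-AS1 had 158 and 155 counts with shCtl and 9 and 4 with shM2-3, and ITGB2 had 2310 and 2321 against 105 and 99. The log2 fold changes were -4.71 for the antisense RNA and -4.65 for ITGB2 (SE 0.0822, edgeR quasi-likelihood, Benjamini-Hochberg adjusted p = 1.9e-14). Antisense stayed at 8.59% and 8.39% of sense RPKM in shCtl and 10.8% and 5.23% in shM2-3, which overlap, and 12.1% of ITGB2-AS1 exon bases lie in ITGB2 exons.

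HSD11B1 makes the enzyme that regenerates cortisol from cortisone. HSD11B1-AS1 had 17 and 23 counts with shCtl and 0 and 1 with shM2-3, a ratio of 44.3 (95% exact interval 7.5 to 1.79e+03 for counting error), and HSD11B1 had 68 and 87 against 9 and 8. No exon bases of this antisense RNA are shared with another gene. SOCS2-AS1, beside the gene of a cytokine signalling inhibitor, had 35 and 44 counts against 14 and 3, and SOCS2 went from 4.88 ± 0.278 to 1.96 ± 0.000898 RPKM. For ATP6V1B1-AS1, beside a subunit of the vacuolar proton pump, counts were 83 and 69 with shCtl and 21 and 10 with shM2-3, and those of ATP6V1B1 were 26 and 54 against 20 and 7. The ATP6V1B1 call was lost without shCtl replicate 2 or shM2-3 replicate 2, and 78.8% of ATP6V1B1-AS1 exon bases lie in another gene model. EML2-AS1 cannot be separated from EML2, a microtubule-associated protein gene, because 95% of its exon bases lie in EML2 exons. It had 170 and 225 counts with shCtl and 85 and 45 with shM2-3, and EML2 fell by 1.37 on the log2 scale.

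IRF1-AS1 rose with IRF1, a transcription factor of the interferon response. IRF1-AS1 had 10 and 24 counts with shCtl and 63 and 33 with shM2-3, a log2 fold change of 1.34 (SE 0.49, edgeR quasi-likelihood, Benjamini-Hochberg adjusted p = 0.025) that lost its call without shCtl replicate 1 (0.86) or shM2-3 replicate 1 (0.89). IRF1 went from 3.25 ± 0.143 to 14.4 ± 0.427 RPKM. Because 28.8% of IRF1-AS1 exon bases lie in IRF1 exons, reads of IRF1 cannot be separated from the rise of IRF1-AS1. The other pairs with both genes higher were HAS2, RASSF8, SEMA3F, ARHGAP5, C1RL and SAP30L. HAS2, a hyaluronan synthase, had 36 and 33 counts with shCtl and 1568 and 1283 with shM2-3, a log2 fold change of 5.22, while HAS2-AS1 had 35 and 30 against 91 and 64, a log2 fold change of 1.10 (SE 0.324, edgeR quasi-likelihood, Benjamini-Hochberg adjusted p = 0.00771). HAS2-AS1 was above HAS2 per length in shCtl, at 183% and 166% of its RPKM, and below it in shM2-3, at 10.7% and 9.26%. HAS2 exons hold 4.44% of the HAS2-AS1 exon bases, and whether HAS2 reads added to the HAS2-AS1 counts was not tested. RASSF8-AS1 had 32 and 34 against 94 and 76 counts and rose by 1.22 on the log2 scale beside 2.05 for RASSF8, a Ras-association domain protein gene.

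**Figure D4:**
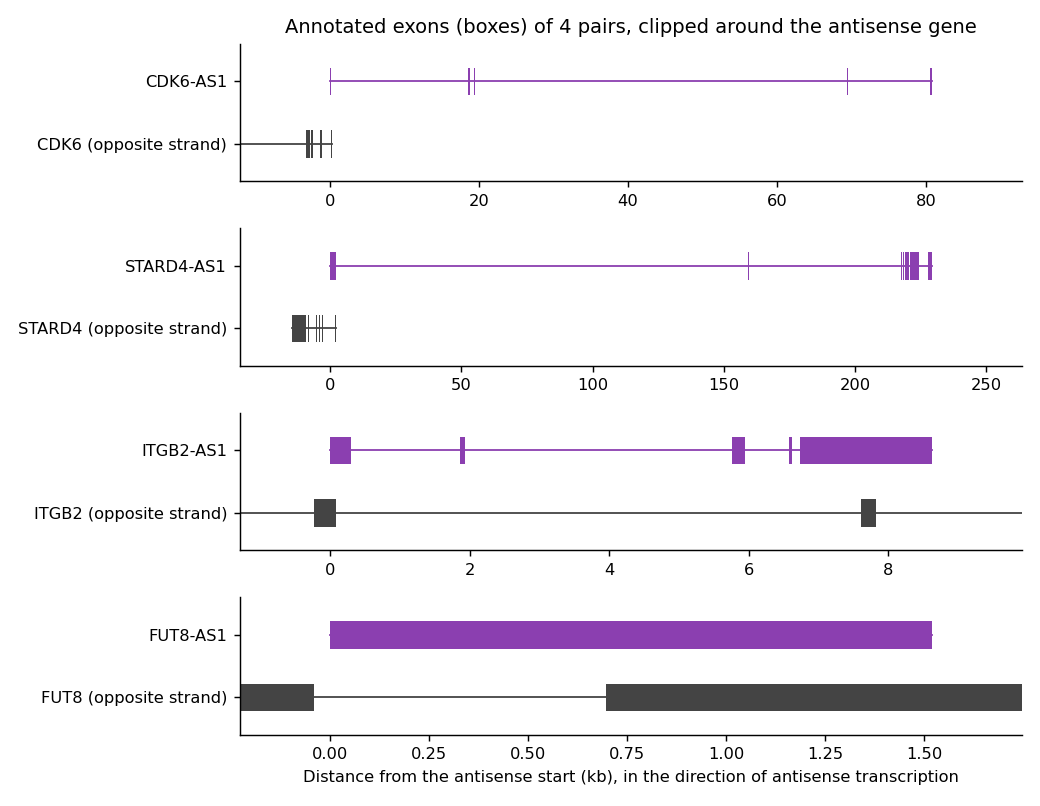
Annotated exons (boxes) and introns (lines) of CDK6, STARD4, ITGB2 and FUT8 and their antisense genes, drawn to scale by distance in kb from the antisense start and clipped around the antisense gene. CDK6-AS1 and STARD4-AS1 overlap the sense gene at their starts and run away from it, ITGB2-AS1 lies within ITGB2, and FUT8-AS1 shares 54.2% of its exon bases with FUT8.

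Head-to-head pairs share no exons with each other. Of the 26 head-to-head members tested, 7 were called lower and 2 higher, beside 2 lower and 3 higher among their 32 tested sense genes. The shares over all members were 21.7% lower and 11.8% higher and those over all genes 8.93% and 9.24%, and whether the arrangement differs from other members was not tested. PAXIP1-AS1, beside the gene of a DNA damage response protein, had 223 and 285 counts with shCtl and 76 and 84 with shM2-3, a log2 fold change of -1.80 (SE 0.191, edgeR quasi-likelihood, Benjamini-Hochberg adjusted p = 1.51e-06). PAXIP1 was not called at 0.38, and the antisense share of its RPKM went from 75.5% and 95.2% to 16.8% and 20.9%. TMCC1-AS1 had 245 and 220 counts with shCtl and 88 and 80 with shM2-3, a log2 fold change of -1.61 (SE 0.177, edgeR quasi-likelihood, Benjamini-Hochberg adjusted p = 2.19e-06). It went from 195% and 183% of the RPKM of TMCC1, an endoplasmic reticulum membrane protein gene at 0.31, to 56.4% and 44.6%, so the order of the pair turned. The printed TMCC1 stretch has no TEAD match. UBAC2-AS1 had 53 and 46 against 21 and 16 counts, with UBAC2 at 15.4 ± 0.704 and 15.2 ± 0.399 RPKM. SLC2A1-AS1, beside the glucose transporter GLUT1 gene, had 35 and 53 against 15 and 13 counts, with SLC2A1 at 42.4 ± 1.33 and 24.5 ± 0.434 RPKM.

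TM4SF1 and SAP30L were the head-to-head pairs with both genes called. TM4SF1 is a cell surface protein of the tetraspanin-like L6 family, and it had 9882 and 10327 counts with shCtl and 5000 and 4526 with shM2-3, a log2 fold change of -1.23 (SE 0.04, edgeR quasi-likelihood, Benjamini-Hochberg adjusted p = 6.92e-12). TM4SF1-AS1 had 23 and 20 against 6 and 11 counts, a log2 fold change of -1.46 (SE 0.621) for a member that reached the limit in shCtl alone. SAP30L-AS1 had 63 and 86 counts with shCtl and 192 and 156 with shM2-3, a log2 fold change of 1.08 (SE 0.211, edgeR quasi-likelihood, Benjamini-Hochberg adjusted p = 0.000431). SAP30L, of a histone deacetylase complex, rose by 1.17 with it, and antisense stayed at 36.2% and 48.1% of sense in shCtl and 42.7% and 36.4% in shM2-3. The stretch between the SAP30L starts has no TEAD match, and that between the TM4SF1 starts has 2. The stretches of the TMCC1, UBAC2 and SLC2A1 pairs, whose antisense RNAs were lower in shM2-3, have none either. Whether a match goes with the direction of change was not tested.

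**Figure D5:**
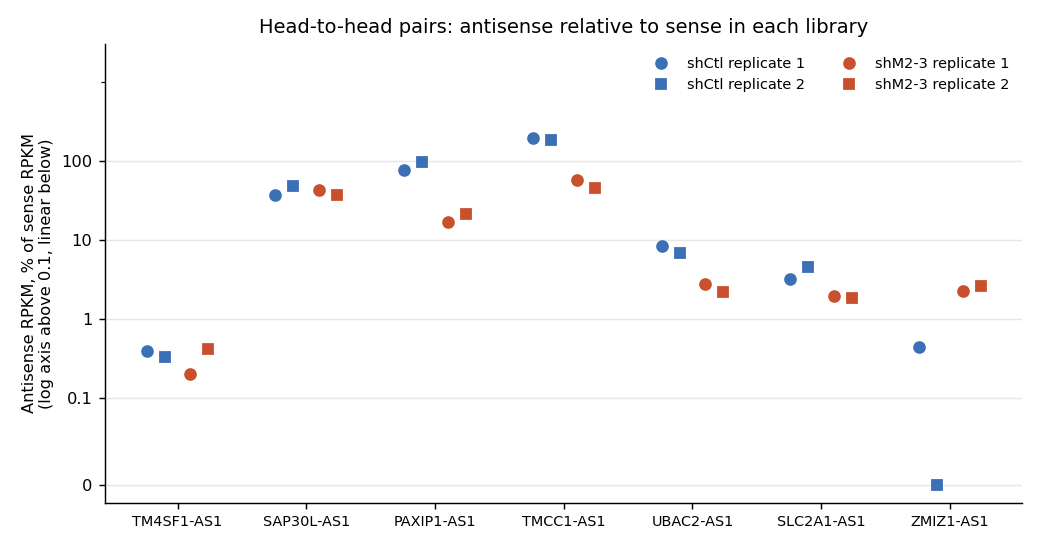
Antisense RPKM as a percent of sense RPKM in each library (y axis, logarithmic above 0.1 and linear below) for 7 head-to-head pairs chosen after their values were seen. The groups overlap for TM4SF1-AS1 and SAP30L-AS1, shM2-3 is lower for PAXIP1-AS1, TMCC1-AS1, UBAC2-AS1 and SLC2A1-AS1, and shM2-3 is higher for ZMIZ1-AS1.

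Of the 8 members with the highest RPKM, FGD5-AS1 and PSMA3-AS1 were called, both higher. FGD5-AS1, a widely expressed noncoding RNA, had 1479 and 1479 counts with shCtl and 4123 and 3622 with shM2-3, or 14.3 ± 0.172 and 32.4 ± 0.692 RPKM. The log2 fold change was 1.25 (SE 0.0462, edgeR quasi-likelihood, Benjamini-Hochberg adjusted p = 2.8e-11). FGD5, an endothelial gene, had 3 counts in 1 shCtl library and 0 in the others, so the antisense RNA stood without a measured sense RNA. PSMA3-AS1 had 324 and 271 counts with shCtl and 843 and 676 with shM2-3, a log2 fold change of 1.21 (SE 0.11, edgeR quasi-likelihood, Benjamini-Hochberg adjusted p = 3.17e-07). PSMA3, a proteasome subunit, moved by -0.20. The most abundant member, EPB41L4A-AS1, had 828 and 833 counts with shCtl and 776 and 793 with shM2-3 (-0.22, not called). THAP9-AS1 (-0.16), OIP5-AS1 (-0.08), GABPB1-AS1 (-0.27), NUTM2A-AS1 (0.25) and AGAP2-AS1 (-0.81) did not pass the limits either. AGAP2-AS1 shares 100% of its exon bases with other genes. OIP5-AS1, the vertebrate relative of the zebrafish RNA cyrano, had the largest mean count of all members, with 2861 and 2914 with shCtl and 3342 and 2688 with shM2-3.

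By the symbols of their sense genes, 57 members fell into role lists, and no list held more than 19 members, too few to set against the 8.93% of all genes called lower and 9.24% called higher. A list goes by the first letters of a symbol alone, so it can hold genes of another role. Over the members of a list tested with the 20-count filter, the median log2 fold change was 1.32 for interferon and antigen presentation (3 members), -0.05 for matrix, adhesion and cytoskeleton, -0.07 for developmental transcription factors, -0.03 for cell cycle and DNA repair, -0.26 for sterol and lipid metabolism and -0.23 for RNA and protein synthesis, beside 0.00 over all genes. In the interferon and antigen presentation list, 2 of 3 tested members were called higher (IRF1-AS1 and PSMB8-AS1, the latter past the count limit in shM2-3 alone) and TRIM52-AS1 was not called at -0.67. IRF1-AS1 and PSMB8-AS1 share 28.8% and 24.8% of their exon bases with their sense genes. In the matrix, adhesion and cytoskeleton list of 9 members, 7 were tested, 3 were lower (ITGB2-AS1, LOXL1-AS1 and MYOSLID-AS1) and 2 higher (ARHGAP5-AS1 and SEMA3F-AS1). Of these, ITGB2-AS1 and MYOSLID-AS1 reached the count limit in shCtl alone. MYOSLID-AS1 is in this list only by its first letters, since MYOSLID is a long noncoding RNA. LOXL1-AS1, beside a crosslinking enzyme of elastic fibres, had 477 and 461 counts with shCtl and 222 and 176 with shM2-3, a log2 fold change of -1.38 (SE 0.118, edgeR quasi-likelihood, Benjamini-Hochberg adjusted p = 1.68e-07), with LOXL1 at -0.50. VIM-AS1 had 110 and 91 against 126 and 92 counts, groups that overlap, and 0.0649% to 0.108% of the RPKM of VIM. AFAP1-AS1, below the RPKM filter, had 19 and 27 against 85 and 75 counts beside AFAP1, an actin filament protein gene called higher at 1.12. AFAP1 exons hold 42.2% of the AFAP1-AS1 exon bases, so the 2 rises cannot be separated.

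In the list of developmental transcription factors with 19 members, 13 were tested, 2 were lower (TBX2-AS1, past the count limit in shCtl alone, and GATA6-AS1) and 1 higher (HOXB-AS3, past it in shM2-3 alone). GATA6-AS1 had 56 and 36 against 25 and 24 counts, a log2 fold change of -1.05 (SE 0.409) whose call was lost without any 1 of 3 libraries (shCtl replicate 1, shM2-3 replicate 1 or 2) and with DESeq2. ZEB1-AS1 had 234 and 237 counts with shCtl and 189 and 154 with shM2-3 (-0.60, not called), while ZEB1, a repressor of epithelial genes, had 0.52. The groups did not overlap for that antisense RNA, whose share of the ZEB1 RPKM went from 34.4% and 35.3% to 16.3% and 15.6%. NR2F1-AS1 (0.33), NR2F2-AS1 (0.27) and FOXD2-AS1 (-0.16) were not called. HOXA-AS2 was below the RPKM filter, with 0 and 2 against 23 and 16 counts, a ratio of 17.6 (95% exact interval 4.56 to 151). It reached the count limit in shM2-3 alone, so its direction was in part set by the choice of members. The interval covers counting error only.

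In the cell cycle and DNA repair list of 9 members, 6 were tested, CDK6-AS1 was lower and KIF25-AS1, past the count limit in shM2-3 alone, higher. MCM3AP-AS1 (-0.41) and DDX11-AS1 (-0.40) were not called, and TMPO-AS1 had 48 and 54 against 60 and 52 counts, below the RPKM filter. CDKN2B-AS1, also called ANRIL and also below that filter, had 41 and 33 counts with shCtl and 103 and 95 with shM2-3, beside CDKN2B, a CDK4 and CDK6 inhibitor that went from 7.68 ± 0.58 to 42.9 ± 0.178 RPKM, a log2 fold change of 2.55. Of the sterol and lipid list, 4 of 5 members were tested and STARD4-AS1 alone was called, with SLC16A1-AS1 at -0.69. The RNA and protein synthesis list, with 6 of 12 members tested, had 0 calls by edgeR's quasi-likelihood test, 1 member at an unadjusted p of 0.05 or less and 0 calls by DESeq2. Of the literature-known members outside these lists, MAPKAPK5-AS1 had 493 and 453 against 242 and 256 counts, a log2 fold change of -1.06 (SE 0.12, edgeR quasi-likelihood, Benjamini-Hochberg adjusted p = 2.64e-06) that was -0.99 without shCtl replicate 1 and -0.95 without shM2-3 replicate 1. MAPKAPK5, a stress-activated kinase gene, had 0.58. SBF2-AS1 (0.53) was not called, and PCBP1-AS1 had 29 and 25 against 27 and 24 counts, below the RPKM filter.

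Members that stayed below the RPKM filter numbered 121. Of these, MRPL23-AS1 had 36 and 26 counts with shCtl and 0 and 0 with shM2-3, at least 11.4-fold lower against a floor of 3 counts in each library at 0, while MRPL23, a mitochondrial ribosomal protein gene, was not called at -0.71. NFIA-AS2 had 0 and 0 counts with shCtl and 41 and 36 with shM2-3, at least 11.6-fold higher, while NFIA, a transcription factor gene, was not called at -0.67. ZMIZ1-AS1 had 3 and 0 counts with shCtl and 59 and 59 with shM2-3, a ratio of 35.5 (95% exact interval 11.9 to 175), beside ZMIZ1, a transcriptional co-activator gene called higher at 1.65. These 3 members had values of 1 group at or near 0, reached the count limit in the other group alone and were chosen after their values were seen. PAPPA-AS1 had 0, 0, 61 and 1 counts, so its level came from shM2-3 replicate 1, and 100% of its exon bases lie in PAPPA, which rose from 1.17 ± 0.099 to 5.01 ± 0.0215 RPKM.

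Members just inside the count limit were CD81-AS1 with 20, 11, 3 and 4 counts, TMCO1-AS1 with 19, 7, 20 and 3 and HM13-AS1 with 5, 11, 13 and 20. Just outside were HDAC4-AS1 with 19, 17, 3 and 2, NDUFV2-AS1 with 19, 19, 1 and 16 and NKX2-1-AS1 with 19, 4.11, 2.21 and 2.19.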

How the data were processed

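Gene-level RNA-seq of ES-2 cells was measured in 4 unstranded libraries, shCtl and shM2-3 with n = 2 each. The authors made the deposited estimated counts from paired-end reads, removing ambiguous and poorly mapped reads and quantifying RefSeq transcripts. The submitters' processing notes name HISAT2 2.0.4, Partek 7.18 and hg38. Many estimated counts are not whole, so some reads may have been divided among genes, which would touch members with shared exons most. The deposited RPKM values, which the authors scaled to gene length and library total, were used for levels, ratios and the filter. Fold changes and p-values were computed here.

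The counts, rounded to integers, were tested with edgeR 4.0.16 (TMM factors, quasi-likelihood test, Benjamini-Hochberg adjustment over all genes tested) in R 4.3.3, over the 12157 genes with RPKM above 1 in at least 1 library. Calls needed an adjusted p no higher than 0.05 and at least a 2-fold difference, and an SE is the size of the log2 fold change over the square root of F. On simulated counts for the same 12157 genes, 198 of 200 planted changes were recovered and 1 other gene was called. Within members, replicates differed by 2.5 (shCtl) and 2.65 (shM2-3) times the counting error as chi-square over its degrees of freedom, so no libraries were merged. The common biological coefficient of variation was 0.0485. Exact intervals are 95% and, like floors of 3 counts, cover counting error only.

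The sense gene is the symbol before -AS, and 312 members had one in the table. Positions and overlaps came from GENCODE release 44 (hg38) for 317 members, 296 by symbol and 21 by older symbol. Promoter sequences came from RefSeq GRCh38.p14 for 245 members. Named members are the 10 lowest and 10 highest called fold changes, the 8 highest RPKM, every pair called in opposite directions, the 6 pairs called in the same direction with the largest smaller change, a list known from the literature, and members at the count limit. Of the 10 lowest, 8 are reported here. Others were chosen after their values were seen and include the head-to-head pairs, those with 1 group near 0, and the remaining pairs with both genes higher. The members and lists were chosen with earlier results of these data known. Alternatives were DESeq2 1.42.0, limma 3.58.1 on log2(RPKM + 0.1) and log2(RPKM + 1), total-count and RLE scaling, other filters, a fold limit of 1.5, the replicate number as a block and leaving out each library.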

Additional observations from a re-analysis of the deposited data

How the results depend on the processing

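The counts of antisense members called (44 lower, 24 higher) and of sense genes called (17 lower, 37 higher) moved by over 1.5 times in these settings. With limma on log2(RPKM + 1), 20 members were lower and 3 higher and 24 sense genes were higher, since that pseudocount shrinks low values. The members called higher were 45 with a filter of 20 counts in at least 1 library, 38 with a mean of 20 counts and 46 with no filter, where more members were tested. With a fold limit of 1.5, 38 members were called higher, and 43 sense genes lower and 63 higher. Leaving out 1 library at a time gave 37 to 42 members lower, 18 to 23 higher, 15 to 18 sense genes lower and 35 to 39 higher. Spearman's coefficient across pairs was 0.26 to 0.40 in all alternatives, and 0.29 to 0.32 without 1 library. Same-numbered replicates did not deviate together (correlation of deviations -0.0228), so the numbers were not taken as pairs. With the replicate number as a block, 42 members were lower and 23 higher.

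Among single named genes, the fold change turned sign in 4 of the alternatives run, all in genes that were not called. Without 1 library, FOXD2-AS1 ran from -0.34 to 0.04, VIM-AS1 from -0.19 to 0.13 and DDX11-AS1 from -1.34 to 0.15. In 45 others a call was lost and in 4 gained. Total-count scaling shifted the median of all genes by -0.04. With 2 libraries in each group, members under about 20 counts gave wide errors, and reads without a known strand limit any member with shared exons. The causes were not tested.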
